A study of Mus musculus with 19 samples.

Results

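The proteasome is the barrel-shaped protease that breaks down most ubiquitin-tagged proteins of a cell, and its subunit genes were followed here in blood stem and progenitor cells of the mouse. Genes were taken as members where the symbol is Psma, Psmb, Psmc, Psmd or Psme followed by a number, which gave 43 of the 54352 genes counted. They are 8 alpha ring genes, 4 structural and 3 catalytic beta ring genes, 3 immunoproteasome genes, 1 thymoproteasome gene, 6 ATPases and 3 other subunits of the base, 8 lid subunits, 3 assembly chaperones and 4 activators. Of these, 42 passed the filter on low counts in every fit. The exception was Psmb11, the catalytic subunit of cortical thymic epithelium, which had 0 or 1 count in each of the 19 libraries.

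RNA-seq was carried out on 2 sorted bone marrow populations. LSK cells, named KLS in the labels, hold the stem and multipotent progenitor cells, and CMP are the common myeloid progenitors. All cells were of strain C57BL6 and carried a doxycycline-inducible shRNA with a zsGreen reporter. The shRNAs were 12928-10 and 12928-20 (sh10 and sh20), both against the lncRNA Spehd, or a control against Renilla luciferase. There were 4 Renilla, 3 sh10 and 3 sh20 LSK libraries, and 4 Renilla, 3 sh10 and 2 sh20 CMP libraries. Controls went through the same steps as knockdown cells: stem cells of female donors were transduced and given to sublethally irradiated CD45.1 recipients with the cKit-w41 allele, of both sexes and 9 to 12 weeks old. After 10 weeks of reconstitution the animals ate doxycycline food for 6 days, and zsGreen+ cells were sorted. The cells are thus regenerated after a transplant into hosts that keep some blood cells of their own. Letters A to D name the replicates. Nothing says whether each letter is a separate animal, so p-values measure the spread between these samples only, which may be technical.

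The 20S core of the proteasome is a stack of alpha rings, which gate the entrance, and beta rings, in which Psmb5, Psmb6 and Psmb7 cut the substrate. The 19S regulatory particle caps the core: ATPases of its base unfold substrates, and its lid removes ubiquitin. In blood cells and under interferon-gamma, Psmb8, Psmb9 and Psmb10 take the places of Psmb5, Psmb6 and Psmb7 in the immunoproteasome, and Psme1 and Psme2 form the PA28 activator, which favours peptides for antigen presentation.

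Libraries held 3647318 to 5965155 counts on genes, and the members took 0.555% to 0.761% of them. Every CMP library with a Spehd shRNA (4918631 to 5965155 counts) was deeper than every control CMP library (3857980 to 4314959). Ly6a, the Sca-1 antigen that defines LSK cells, was at 50.9 ± 8.62 CPM (counts scaled to the library's effective size; SD, n = 4) in control LSK and at 5.17 ± 2.03 CPM (SD, n = 4) in control CMP. Of the 9 markers of CMP and other myeloid progenitors, 2 were called higher in control CMP than in control LSK and 6 lower. Gata1 was at 58.9 to 79.0 CPM in the 4 control LSK libraries and 278 to 312 CPM in the 4 control CMP libraries and Car1 at 52.8 to 150.5 and 225 to 255 CPM, while the granule gene Mpo was at 476 to 611 and 299 to 428 CPM and Elane at 126 to 176 and 29.0 to 47.7 CPM. Libraries of a group differed beyond counting noise. LSK sh10 B stood apart from its replicates, with a chi-square per degree of freedom of 37.7 and 45.2 over genes, against 5.24 between LSK sh10 A and C. Both CMP sh20 libraries, B and C, stood apart from each other at 27.8, against 4.31 to 8.07 in the other CMP pairs, and the LSK sh20 pairs were at 13.9 to 18.3. The 5 markers of mature neutrophils summed to 271 CPM in LSK Renilla B, 105 CPM in LSK Renilla D and 46.0 to 267 CPM in LSK sh10, and to 1.22 to 10.5 CPM in the other libraries. The lncRNA has no row of its name among the counted genes, and its level is not analysed here. In sorted populations such as these, fewer cells of a type and less RNA per cell cannot be told apart.

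**Figure D1:**
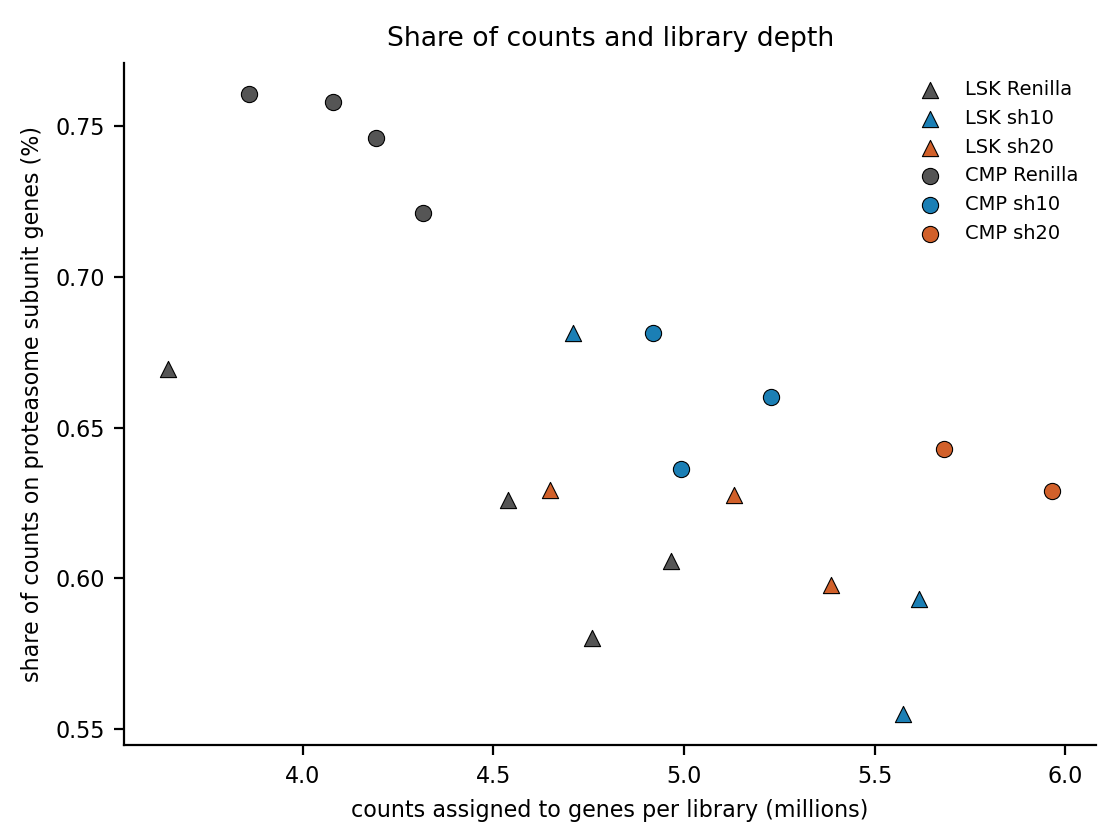
Share of gene counts that fell on the proteasome subunit genes (vertical axis, %) against counts assigned to genes (horizontal axis), with 1 point per library, circles for CMP, triangles for LSK and colours for the shRNA. The control CMP libraries have the highest shares and fewer counts than every CMP library with a Spehd shRNA.

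Promoters of the partners Psmb5 and Psmb8, and Psmb6 and Psmb9, are shown because the members of each pair replace each other in the beta ring and are compared below. The sequences are from RefSeq, build GRCm38.p6, and are the 250 bases before the RefSeq transcript start, 5′ to 3′ on the gene's strand. Capitals mark matches to 5 motifs searched on both strands.
Psmb5, chr14:54617996-54618245, strand -: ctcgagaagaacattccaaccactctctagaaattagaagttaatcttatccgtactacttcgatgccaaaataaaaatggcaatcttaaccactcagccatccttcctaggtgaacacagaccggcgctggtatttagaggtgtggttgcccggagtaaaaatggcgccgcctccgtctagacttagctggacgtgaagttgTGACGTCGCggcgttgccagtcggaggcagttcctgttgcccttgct
Psmb8, chr17:34197945-34198194, strand +: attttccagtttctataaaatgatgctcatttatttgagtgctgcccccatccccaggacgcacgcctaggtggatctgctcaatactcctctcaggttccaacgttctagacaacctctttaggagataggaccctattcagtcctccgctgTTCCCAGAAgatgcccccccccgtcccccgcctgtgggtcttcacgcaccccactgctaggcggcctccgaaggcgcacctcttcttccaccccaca
Psmb6, chr11:70525107-70525356, strand +: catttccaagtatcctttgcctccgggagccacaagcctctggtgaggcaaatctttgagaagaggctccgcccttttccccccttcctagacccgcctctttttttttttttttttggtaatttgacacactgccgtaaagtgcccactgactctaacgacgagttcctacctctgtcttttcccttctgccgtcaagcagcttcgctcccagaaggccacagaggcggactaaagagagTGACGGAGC
Psmb9, chr17:34187331-34187580, strand -: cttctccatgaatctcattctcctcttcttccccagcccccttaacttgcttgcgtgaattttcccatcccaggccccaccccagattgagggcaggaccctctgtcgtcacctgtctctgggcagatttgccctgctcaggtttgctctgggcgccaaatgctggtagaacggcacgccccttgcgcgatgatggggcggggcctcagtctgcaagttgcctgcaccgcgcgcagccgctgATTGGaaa
The motifs were the antioxidant response element core TGACNNNGC, the CCAAT box CCAAT, the ETS core CCGGAAG, the interferon-stimulated response element (GAAA, any 2 bases, GAAA) and the gamma-activated site TTCNNNGAA. None of these strings lies within another. Capitals are an antioxidant response element core in Psmb5 and Psmb6, a gamma-activated site in Psmb8 and a CCAAT box on the other strand in Psmb9.

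Windows of 300 bases, 250 before the start and 50 after it, were found for 36 of the 43 members. Psma8, Psmb1, Psmb2, Psmb7, Psmc3, Psmd3 and Psmd7 have no entry. The ETS core was in 12 of 36 (33.3%), against 19.5% of the 10797 tested genes with a window. These were Psma6, Psmc1, Psmc2, Psmc6, Psmd2, Psmd4, Psmd6, Psmd11, Psmd12, Psmd13, Psme3 and Psme4. The antioxidant response element core was in 6 (16.7% against 17.0%), the CCAAT box in 14 (38.9% against 42.8%) and the gamma-activated site in 2, Psmb8 and Psmd2 (5.56% against 8.32%). The interferon-stimulated response element was in 4, namely Psmb3, Psmd4, Psmd9 and Psme1 (11.1% against 4.0%). The Psme1 match lies just after the start and is shown with its flanks, capitals for the motif on the other strand, since Psme1 is a subunit of the inducible activator.
Psme1, chr14:55578493-55578522, strand +: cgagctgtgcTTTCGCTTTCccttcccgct
A match describes letters only and is not a site of binding.

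The first comparison asks how proteasome genes differ between stem-enriched cells and myeloid progenitors with the control shRNA. Of the 42 members, 27 were higher in CMP than in LSK and none was lower, at a Benjamini-Hochberg adjusted p under 0.05 from the quasi-likelihood test of edgeR. Of all 15066 genes tested, 11.0% were called higher. The median log2 fold change was 0.31 over the members and -0.02 over all genes. All 4 CMP libraries lay above all 4 LSK libraries for 29 members, which held for 16.4% of genes tested. With LSK Renilla B and D left out, the control libraries with neutrophil markers, 13 members were called (5.23% of genes higher), and without a filter on low counts 10 (2.87%), none lower in either case. All 4 red cell markers had positive log2 fold changes too, 3 of them past the threshold, and they summed to 22.1 to 59.9 CPM in control CMP and 3.38 to 7.23 CPM in control LSK. Of the 5 lymphoid markers tested, 3 were positive and 2 negative, and 1 was called higher (log2 fold change 4.18, adjusted p = 0.0066, edgeR). Cd3e was at 8.53 to 16.4 CPM in control CMP and 0 to 2.59 CPM in control LSK. The part of these markers in the result was not tested.

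The regulatory particle held most of the calls. All 8 lid genes rose, as did 5 of 6 base ATPases, 2 of 3 other base genes and all 3 assembly chaperones. In the core, 4 of 8 alpha ring genes, 2 of 4 structural beta genes and 2 of 3 catalytic genes rose. Of the 4 activators 1 rose, and of the 3 immunoproteasome genes none did. The median log2 fold change was 0.36 over the 17 base and lid genes, 0.28 over the 15 alpha, structural beta and catalytic genes, and -0.04 over the immunoproteasome genes. Differences between these classes were not tested.

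Psmd7, a lid subunit that pairs with the deubiquitinase Psmd14, lies at chr8:107580381-107588464 (GRCm38) and had the smallest adjusted p. It stood at 204, 205, 224 and 217 CPM in LSK Renilla A to D and at 303, 301, 265 and 295 CPM in CMP Renilla A to D. The groups did not overlap, and the log2 fold change was 0.45 ± 0.06 (SE; adjusted p = 0.000119, edgeR). Psmc2, a base ATPase at chr5:21785283-21803787, was at 159.7, 175, 171 and 168 CPM in control LSK and at 244, 242, 225 and 225 CPM in control CMP, again without overlap, and rose by 0.48 ± 0.07 (SE; adjusted p = 0.000189, edgeR). Psmd6, a lid scaffold subunit, was at 157, 145, 159.6 and 156 CPM in control LSK and at 209.9, 206, 187 and 215 CPM in control CMP, a rise of 0.41 ± 0.08 (SE; adjusted p = 0.00196, edgeR) with no overlap.

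Psmd9, a chaperone that holds base ATPases during assembly, was at 62.3, 83.2, 63.6 and 73.4 CPM in control LSK and at 107, 128, 114 and 114 CPM in control CMP. It rose by 0.71 ± 0.13 (SE; adjusted p = 0.00114, edgeR). The gene overlaps Hpd on the opposite strand, whose reads cannot be told apart where a library does not mark strand. Psmd10 (gankyrin), another chaperone of the base, rose by 0.52 (adjusted p = 0.00268, edgeR), and Psmd5, the remaining one, by 0.38 (adjusted p = 0.00513, edgeR). Psmd5 overlaps Cutal on the opposite strand.

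**Figure D2:**
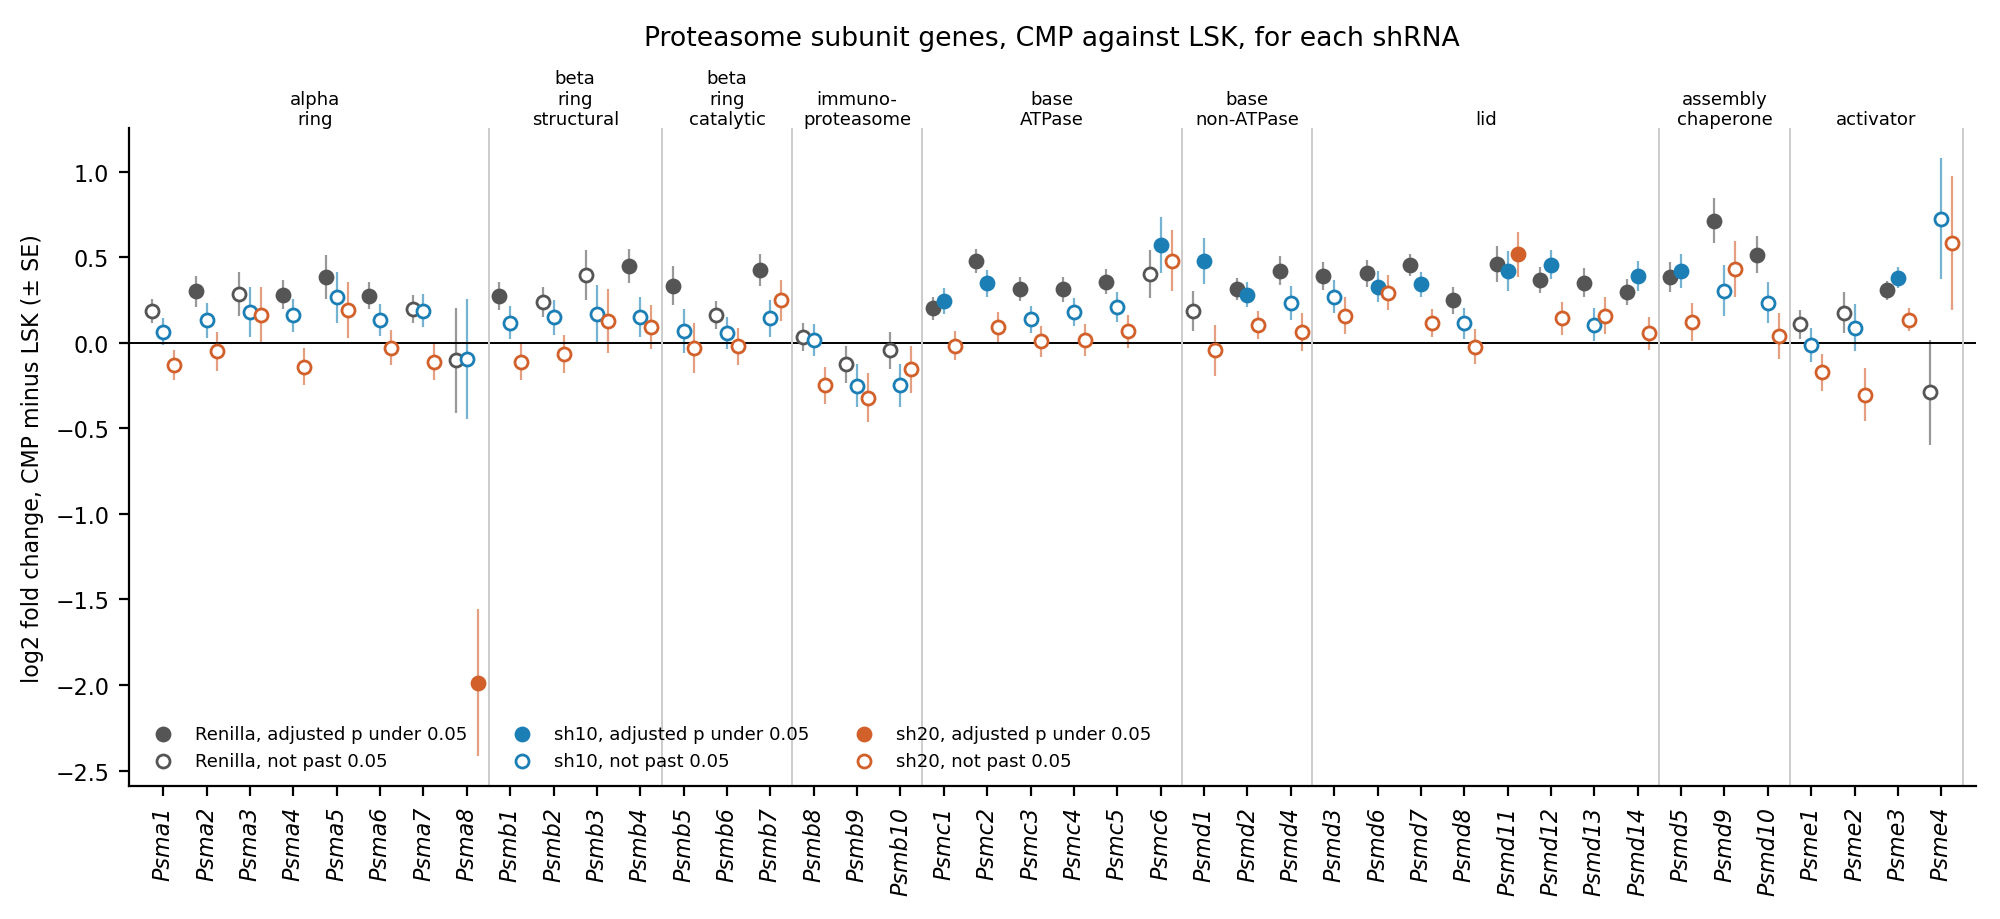
Log2 fold change of each of the 42 tested members, CMP minus LSK (vertical axis, with SE), for Renilla (grey), sh10 (blue) and sh20 (orange) libraries, in order of role. Filled points have an adjusted p under 0.05: 27 with the Renilla shRNA, 12 with sh10 and 2 with sh20.

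Among the catalytic genes Psmb7, the trypsin-like subunit, was at 74.4, 82.2, 86.5 and 83.3 CPM in control LSK and at 109.5, 115, 104 and 109 CPM in control CMP, a rise of 0.43 ± 0.09 (SE; adjusted p = 0.0043, edgeR). Psmb5, the chymotrypsin-like subunit, was at 36.3, 38.8, 40.6 and 41.0 CPM in control LSK and at 48.4, 49.7, 48.7 and 50.8 CPM in control CMP, a rise of 0.33 ± 0.11 (SE; adjusted p = 0.0463, edgeR). Neither gene overlapped between the groups, though Psmb7 overlaps Nek6 on the opposite strand. Psmb6, the caspase-like subunit, was at 143, 139.6, 167 and 149 CPM in control LSK and at 174, 165, 158 and 173 CPM in control CMP. Its highest LSK library lay above its lowest CMP library, and the log2 difference of 0.16 did not pass (adjusted p = 0.185, edgeR).

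The inducible partners overlapped between the cell types. Psmb8, at chr17:34197721-34201454 and overlapped by Gm20496 on the opposite strand, was at 203, 196, 256 and 203 CPM in control LSK and at 220.1, 217, 216 and 223 CPM in control CMP, a log2 difference of 0.03 ± 0.08 (SE; adjusted p = 0.836, edgeR). Psmb9, which overlaps Tap1 on the opposite strand, was at 185, 169.7, 218 and 170.1 CPM in control LSK and at 169, 155, 178 and 177 CPM in control CMP, a log2 difference of -0.13 ± 0.11 (SE; adjusted p = 0.47, edgeR). Psmb10 was at 137, 137, 170.2 and 141 CPM in control LSK and at 141, 138, 139 and 150.0 CPM in control CMP, with a log2 difference of -0.04 ± 0.11 (SE; adjusted p = 0.833, edgeR). LSK Renilla C was the highest control LSK library for all 3 genes.

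Psme3, the nuclear PA28 gamma, was at 329, 339.9, 355 and 324 CPM in control LSK and at 430.2, 438, 391 and 407 CPM in control CMP, a rise of 0.31 ± 0.05 (SE; adjusted p = 0.000792, edgeR). Psme1, which overlaps Emc9 on the opposite strand, was at 132, 143, 169 and 139 CPM in control LSK and at 153, 163, 149.7 and 163 CPM in control CMP. Psme2 was at 46.3, 44.8, 58.9 and 49.4 CPM in control LSK and at 56.9, 55.8, 52.2 and 60.1 CPM in control CMP. The subunits of the inducible PA28 overlapped between the cell types, with log2 differences of 0.11 and 0.18 (adjusted p = 0.405 and 0.336, edgeR). Psme4, the PA200 activator, was at 63.0, 44.2, 56.7 and 52.5 CPM in control LSK and at 51.1, 49.5, 50.6 and 25.8 CPM in control CMP, also with overlap (log2 difference -0.29, adjusted p = 0.567, edgeR).

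**Figure D3:**
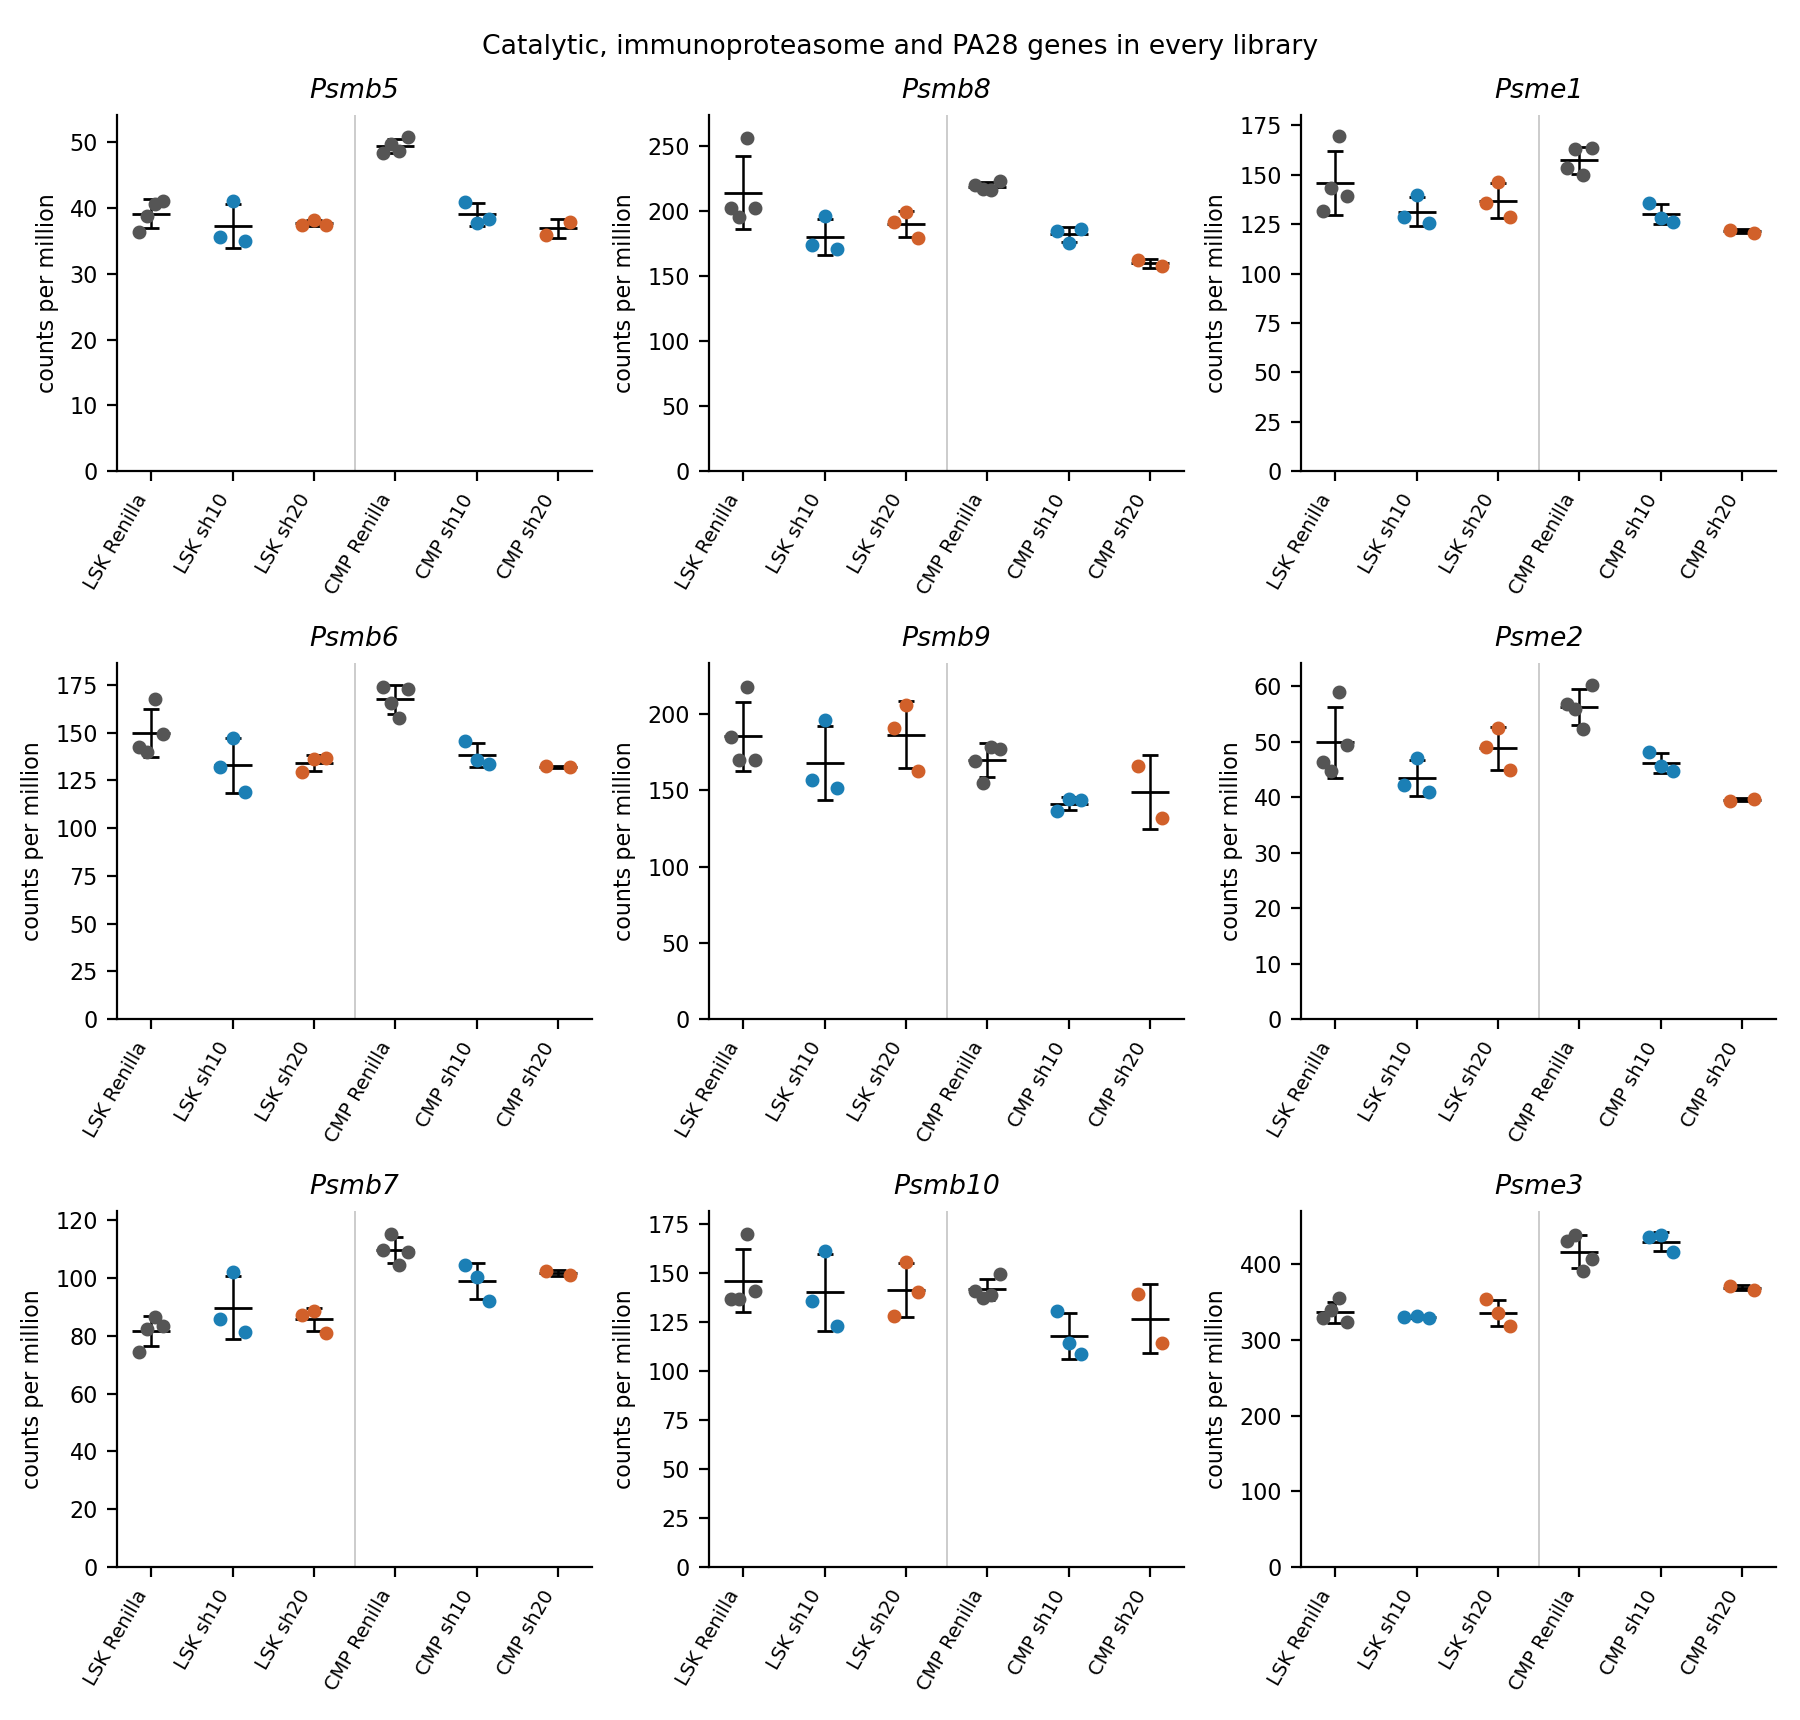
CPM (vertical axes, from 0) of the catalytic genes, their immunoproteasome partners and the PA28 genes in every library of the 6 groups, with points for libraries and bars for the group mean ± SD (n = 2 to 4). Psmb5, Psmb7 and Psme3 are higher in every control CMP library than in every control LSK library, while Psmb8, Psmb9 and Psmb10 overlap.

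Since the partners compete for the same place in the ring, their ratio was taken within each library, as log2 of counts per exonic kb with 0.5 added to each count. The level of such a ratio depends on the length used, while a difference between groups does not. The Psmb10 to Psmb7 log2 ratio was 1.84 ± 0.11 in control LSK and 1.38 ± 0.09 in control CMP (SD, n = 4 each), a difference of -0.47. The Psmb8 to Psmb5 log2 ratio was 0.53 ± 0.16 in control LSK and 0.23 ± 0.03 in control CMP, a difference of -0.30. The Psmb9 to Psmb6 log2 ratio was -0.66 ± 0.09 in control LSK and -0.95 ± 0.12 in control CMP, a difference of -0.29. In these 3 pairs every CMP library was below every LSK library. Each gave p = 0.0286 in a two-sided exact permutation test, the smallest that 4 against 4 libraries can give, and an adjusted p of 0.0857 over the 12 ratio tests, so none passed 0.05. The Psme2 to Psme3 log2 ratio was -2.02 ± 0.14 in control LSK and -2.14 ± 0.09 in control CMP, with an exact permutation p of 0.229 and an adjusted p of 0.343.

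**Figure D4:**
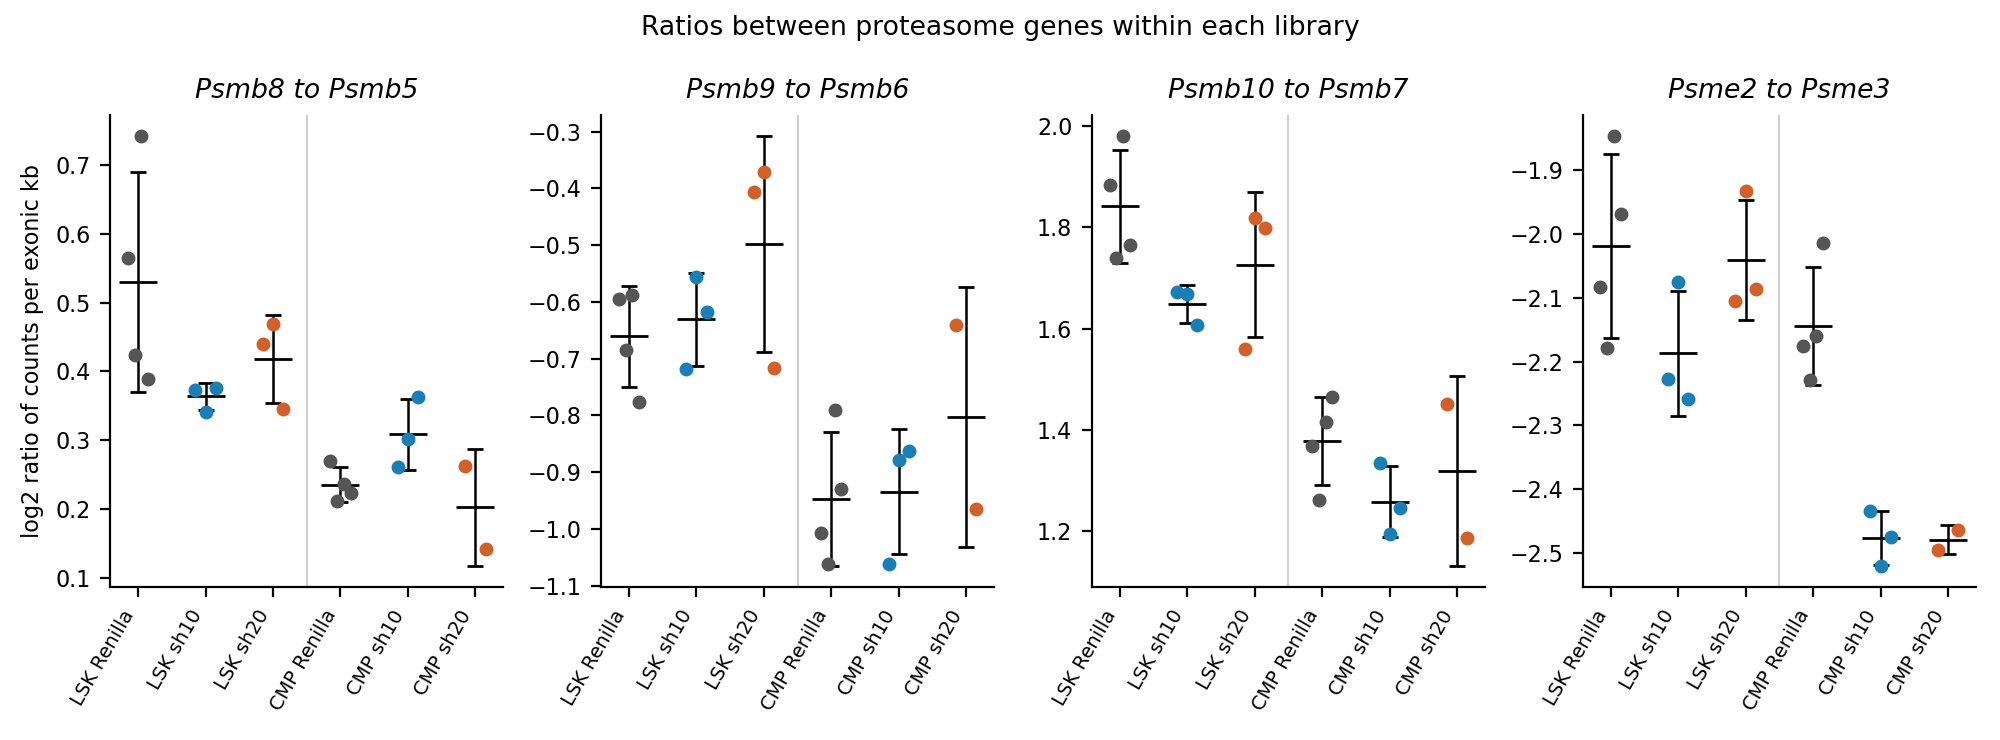
Log2 ratio of counts per exonic kb (vertical axes, each panel on its own scale) between 4 pairs of genes within each library of the 6 groups, with points for libraries and bars for the mean ± SD (n = 2 to 4). The 3 immunoproteasome ratios are lower in all 4 control CMP libraries than in all 4 control LSK libraries.

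In levels per exonic kb in control CMP (mean ± SD, n = 4), Psmc5 (153 ± 6.43 CPM per kb), Psma6 (146 ± 5.15), Psme3 (141 ± 7.37), Psmb2 (133 ± 4.45) and Psmd7 (129 ± 7.73) led the members. The ranges of mean ± SD of neighbours in this order overlapped. Psmb5 stood at 55.0 CPM per kb next to Psmb8 at 64.8, Psmb6 at 89.4 next to Psmb9 at 46.4, and Psmb7 at 32.0 next to Psmb10 at 83.2. Psma3 (11.9), Psma8 (8.21) and Psme4 (5.28 CPM per kb) were the lowest that passed the filter. Psma8 is the germ cell counterpart of Psma7, which stood at 64.4 CPM per kb. Such levels depend on the length used. In an alternative chosen after seeing the data, per kb of the annotated principal transcript Psma7 led at 216, with Psmb5 at 55.0 and Psmb8 at 135 CPM per kb. The geometric mean ratio of Psmb10 to Psmb7 in control CMP was 2.60 by exonic and 1.15 by principal length. For Psmb8 to Psmb5 it was 1.18 and 2.44, and for Psmb9 to Psmb6 0.52 and 0.60.

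The same contrast was made within the knockdown libraries, and these differences between shRNAs were tested only as the interaction given below. With sh10, 12 members were higher in CMP than in LSK and none was lower, where 7.54% of genes were called higher, and the median was 0.18. They were 5 lid genes, 3 base ATPases, 2 other base genes, the chaperone Psmd5 and Psme3, and none of the 15 core genes passed. There were 7 and 5 calls without CMP sh10 A or B (4.89% and 4.01% of genes), 5 with upper quartile normalization (5.09%) and 3 without a filter (2.24%). Without LSK sh10 B there were 18 (9.36%) and the median was 0.28, and upper quartile normalization gave a median of 0.053. All 3 LSK sh10 libraries held neutrophil markers, most in LSK sh10 B, and their part was not tested. With sh20, 1 member was higher, where 5.85% of genes were called higher, and 1 was lower, where 8.47% were called lower. The median was 0.05, and there were 0 calls without CMP sh20 B (8.77% of genes in either direction) and 5 without LSK sh10 B (20.2%). Where CMP sh20 B or C is left out, sh20 in CMP holds 1 library, which is taken to vary like the libraries of the other groups.

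Psmd12, a lid scaffold subunit, was at 170.1, 144 and 155 CPM in LSK sh10 and at 216, 222 and 207 CPM in CMP sh10, a rise of 0.46 ± 0.09 (SE; adjusted p = 0.00164, edgeR). Psmd14, the deubiquitinase of the lid, was at 166, 140.4 and 148 CPM in LSK sh10 and at 206, 198 and 192 CPM in CMP sh10, a rise of 0.39 ± 0.09 (SE; adjusted p = 0.0059, edgeR). Psme3 was at 330.3, 332 and 329 CPM in LSK sh10 and at 436, 438 and 416 CPM in CMP sh10, a rise of 0.38 ± 0.06 (SE; adjusted p = 0.000428, edgeR). None of these overlapped. With sh10, 15 members and 19.4% of genes tested were higher in every CMP library than in every LSK library. Psmd7 rose by 0.34 (adjusted p = 0.00389, edgeR) and Psmc2 by 0.35 (adjusted p = 0.007, edgeR) with sh10. Psmc2 did not pass without CMP sh10 A or B (adjusted p = 0.0542 and 0.0782, edgeR).

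Psmd11, a lid subunit, passed with each of the 3 shRNAs. It was at 75.4, 94.4, 91.9 and 96.1 CPM in LSK Renilla and at 131, 125, 121 and 115 CPM in CMP Renilla. With sh10 it was at 85.0, 116 and 91.6 CPM in LSK and 132, 133 and 126 CPM in CMP, and with sh20 at 90.1, 86.9 and 91.7 CPM in LSK and 129 and 127 CPM in CMP. The log2 fold changes were 0.46, 0.42 and 0.52 (adjusted p = 0.00511, 0.0225 and 0.0146, edgeR). Psma8 went the other way with sh20, from 31.0, 26.0 and 21.7 CPM in LSK to 4.07 and 9.13 CPM in CMP, a log2 fold change of -1.99 ± 0.43 (SE; adjusted p = 0.00531, edgeR). With sh20, neither passed without CMP sh20 B (adjusted p = 0.0727 for Psma8 and 0.0675 for Psmd11, edgeR), nor Psmd11 without LSK sh20 B (adjusted p = 0.0504, edgeR).

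The next comparison asks how the Spehd shRNAs altered proteasome genes in CMP. With sh10 and sh20 together no member passed in edgeR's quasi-likelihood test, where 0.116% of 12912 genes were called in either direction. Of the members' log2 fold changes, 38 of 42 were negative with a median of -0.21, against 0.02 over all genes, and 24 had an unadjusted p under 0.05. Over all genes 47.1% were negative and 16.5% had such a p. All 5 Spehd libraries lay below all 4 controls for 24 members, which held for 6.37% of genes tested. The call depended on the test. DESeq2 called 18 members lower, where it called 4.8% of genes lower. A fit with sh10 and sh20 as separate groups called 14 lower (3.42% of genes) and upper quartile normalization 14 (2.24% of genes).

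These values moved with library depth. CMP libraries with a Spehd shRNA held more member counts, 34769.6 ± 2309 (SD, n = 5), than the controls with 30658 ± 887 (SD, n = 4), but a smaller share, 0.65 ± 0.0209% against 0.746 ± 0.018% of all gene counts. The median was -0.07 once the log2 of total counts was added to the model. Depth and shRNA cannot be told apart in CMP.

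Psmb1, Psmb8 and Psmc3 shared the smallest adjusted p, 0.0673 (edgeR), and did not pass. Psmb1, a structural beta subunit, was at 156, 162, 156 and 166 CPM in the controls, 134, 127 and 127 CPM with sh10 and 113 and 120.5 CPM with sh20, a log2 difference of -0.36 ± 0.07 (SE). Psmb8 was at 220.1, 217, 216 and 223 CPM in the controls, 185, 175 and 186 CPM with sh10 and 162 and 158 CPM with sh20, a log2 difference of -0.34 ± 0.06 (SE). Psmc3, a base ATPase that overlaps Slc39a13 on the opposite strand, was at 295, 285, 278 and 297 CPM in the controls, 254, 245 and 237 CPM with sh10 and 236 and 232 CPM with sh20, a log2 difference of -0.26 ± 0.05 (SE). For each the knockdown libraries lay wholly below the controls. Without CMP sh20 B the 3 passed, with adjusted p of 0.0398, 0.043 and 0.0437 (edgeR), among 4 members called lower, where 0.97% of genes were.

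Core and regulatory particle are given side by side, and their difference was not tested. The median log2 difference was -0.30 over the 15 core genes, 15 of them negative, and -0.12 over the 17 base and lid genes, of which 14 were negative. The mean log2 CPM of the core genes without Psma8, minus that of the base and lid genes, was -1.07 ± 0.05 in control CMP (SD, n = 4) and -1.22 ± 0.03 in CMP with Spehd shRNAs (SD, n = 5), and the libraries did not overlap. In LSK it was -1.02 ± 0.05 (SD, n = 4) and -1.08 ± 0.07 (SD, n = 6), with overlap. Transcript length moved with the values: the median was -0.26 over the 21 members of at most 2814 exonic bases and -0.13 over the 21 longer ones. Across genes of the same libraries, Spearman's correlation of log2 fold change with exonic length was 0.46 over the 42 members and 0.30 over 12838 genes tested, and genes are not independent replicates. The part of length in the order of the classes was not tested.

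With sh20 alone, 13 members fell and none rose, where 4.06% of 13824 genes were called lower, and the members' median was -0.26. They were Psma1, Psma2, Psma6 and Psma7 of the alpha ring, the structural Psmb1 and Psmb2, the catalytic Psmb6, the immunoproteasome Psmb8, the ATPases Psmc3 and Psmc4, the ubiquitin receptor Psmd4, the lid gene Psmd8 and the activator Psme1. The group has 2 libraries, which stood apart from each other as given above, and a fit without one of them takes its spread from the other groups alone. The count was 3 without CMP sh20 B or CMP Renilla D, 4 without CMP sh10 B, CMP Renilla A or CMP Renilla B, and 6 without CMP sh10 A, where 2.10% to 3.50% of genes were called lower. There were 5 calls without a filter (1.37% of genes lower), 22 with upper quartile normalization (5.98%) and 0 with total counts as a covariate (0.0%). Both sh20 libraries lay above the controls in the macrophage marker C1qa, at 36.3 to 44.7 CPM against 5.89 to 23.4 CPM in control CMP, while the 5 macrophage and dendritic markers summed to 289 to 434 CPM against 188 to 429 CPM. Their part in the result was not tested.

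Psmb8 fell by 0.44 on the log2 scale with sh20 (SE 0.06; adjusted p = 0.01, edgeR). Psma7 was at 199.6, 198, 192 and 202 CPM in control CMP and at 143 and 143 CPM with sh20, a log2 fold change of -0.45 ± 0.08 (SE; adjusted p = 0.0122, edgeR). Psmb2, a structural beta subunit, was at 162, 160.3, 153 and 165 CPM in the controls and at 116 and 119 CPM with sh20 (-0.43 ± 0.08, SE; adjusted p = 0.02, edgeR). In each gene the sh20 libraries lay below all controls, which held for 31 members and for 17.6% of genes tested. Psma1 was at 222, 223, 212 and 232 CPM in the controls and at 178 and 172 CPM with sh20 (-0.33 ± 0.07, SE; adjusted p = 0.0238, edgeR), and Psmb1 fell by 0.44 (adjusted p = 0.0151, edgeR). Psmb1 and Psmb2 did not pass without CMP sh20 B (adjusted p = 0.0522 and 0.054, edgeR), nor Psma1 and Psmb2 without CMP Renilla D (adjusted p = 0.0586 and 0.0519, edgeR). Psma1 did not pass without CMP sh10 B, CMP Renilla A or CMP Renilla B either (adjusted p = 0.0512, 0.0522 and 0.0527, edgeR). Psmc6, a base ATPase, lay on the other side without passing, at 159, 154, 156 and 141 CPM in the controls and 187 and 169.6 CPM with sh20 (0.24 ± 0.08, SE; adjusted p = 0.121, edgeR).

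With sh10 Psmb8 alone fell, by 0.27 (SE 0.06; adjusted p = 0.0481, edgeR), where 0.911% of genes were called lower. The median was -0.20, with 37 of 42 negative (51.7% of genes). Leaving out any of the CMP sh10 or CMP Renilla libraries gave 0 calls, where 0.0439% to 0.0514% of genes were called lower without an sh10 library and 0.0876% to 1.10% without a control library, and leaving out CMP sh20 B or C gave 5 and 4, where 2.97% and 2.8% of genes were called lower. DESeq2 called 11 members lower (4.22% of genes) and upper quartile normalization 9 (2.32%). In edgeR there were 0 calls with DESeq2's size factors (0.846% of genes), 0 without a filter (0.627%) and 0 with total counts as a covariate (0.0%). The 4 red cell markers had negative log2 differences with sh10, none of them past the threshold. They summed to 10.0 to 20.4 CPM with sh10 against 22.1 to 59.9 CPM in the controls, without overlap. The 3 lymphoid markers tested were negative with sh10 too, and 1 was called lower (log2 fold change -4.42, adjusted p = 0.0277, edgeR). Cd3e was at 0.559 ± 0.529 CPM with sh10 (SD, n = 3) and 12.4 ± 3.43 CPM in control CMP (SD, n = 4). The part of these markers in the result was not tested.

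**Figure D5:**
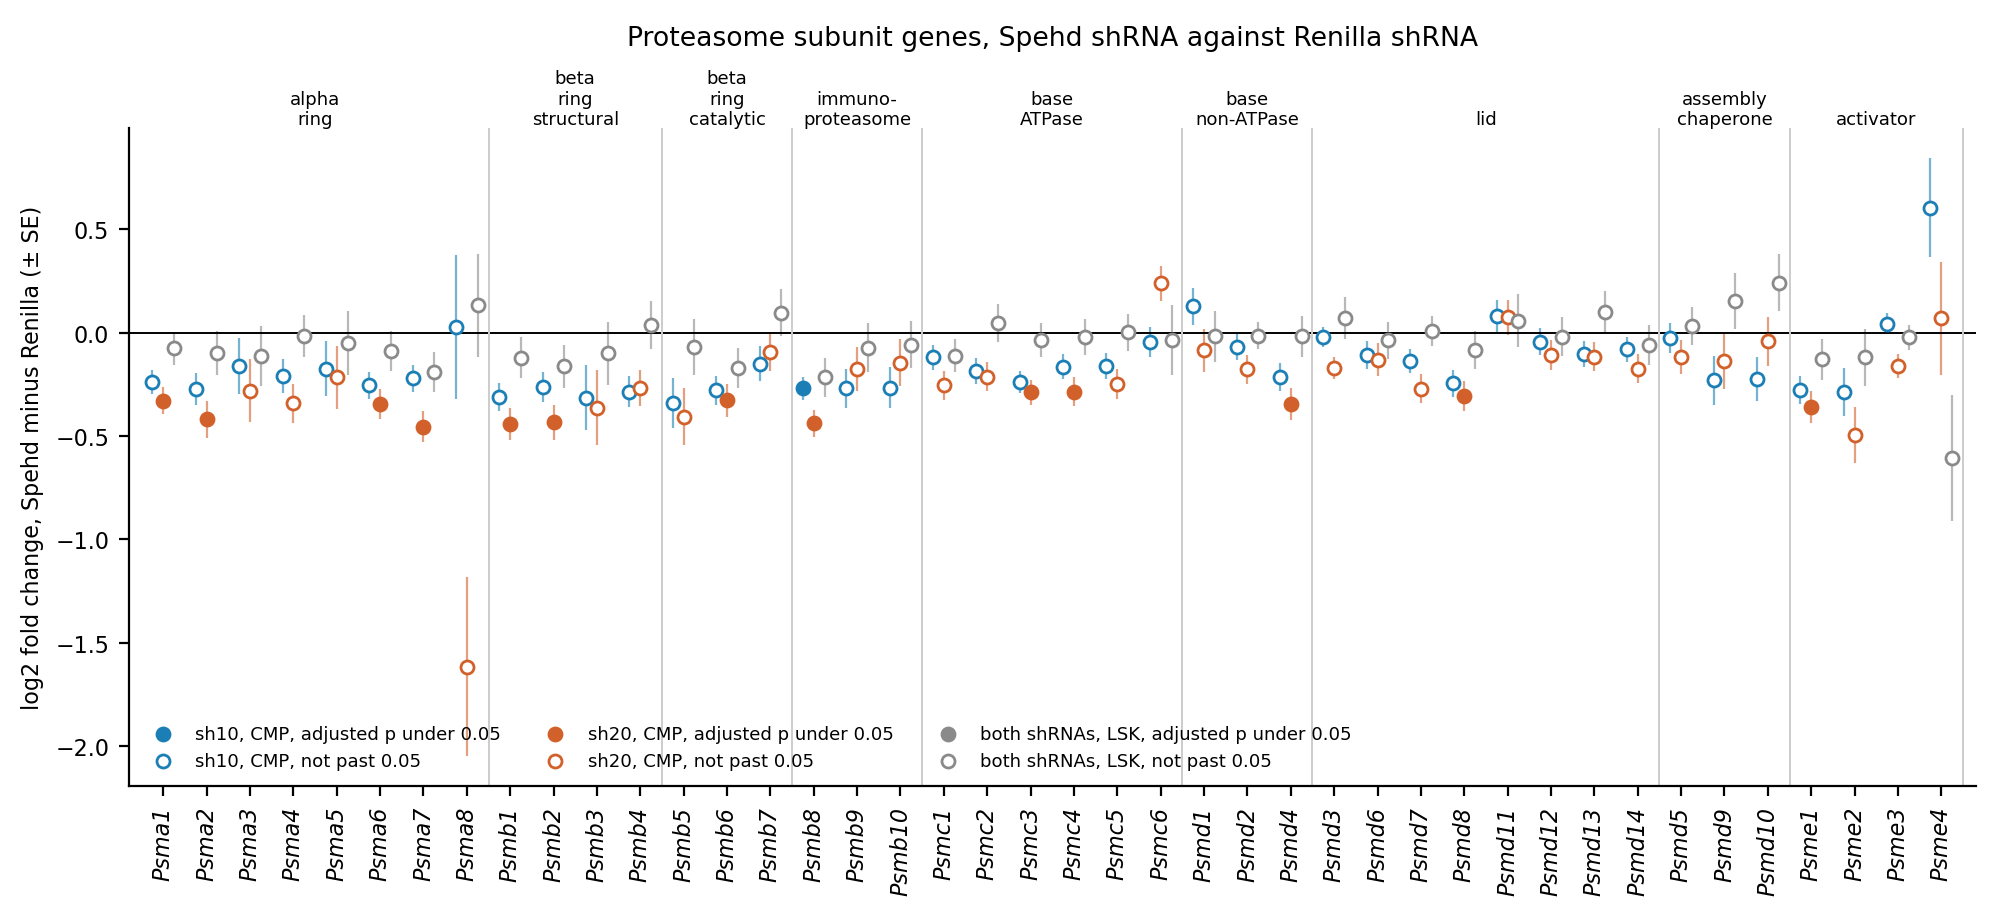
Log2 fold change of each of the 42 tested members against the Renilla shRNA of the same cell type (vertical axis, with SE): sh10 in CMP (blue), sh20 in CMP (orange) and both Spehd shRNAs together in LSK (grey), in order of role. Filled points have an adjusted p under 0.05, which are 1 with sh10, 13 with sh20 and none in LSK.

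The shRNAs were also set against each other. Between sh20 and sh10 in CMP no member was called by edgeR, where 5.9% of genes were called in either direction, 6 members had an unadjusted p under 0.05 (26.2% of genes) and the median was -0.09. DESeq2 called 3 members, where it called 13.3% of genes, and edgeR 3 without CMP sh20 C, with 1 sh20 library left, where it called 23.7%. Psma8 (-1.64), Psme3 (-0.20) and Psmc6 (0.28) had the smallest p and did not pass (adjusted p = 0.0599, 0.0731 and 0.0821, edgeR). Psma8 was at 12.6, 21.2, 22.3 and 25.8 CPM in control CMP, 16.8, 18.1 and 27.8 CPM with sh10 and 4.07 and 9.13 CPM with sh20. Psme3 was at 436, 438 and 416 CPM with sh10, against 391 to 438 CPM in the controls, and at 371 and 366 CPM with sh20.

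The Psme2 to Psme3 log2 ratio was -2.14 ± 0.09 in control CMP (SD, n = 4) and -2.48 ± 0.03 in CMP with Spehd shRNAs (SD, n = 5). The difference of -0.33 gave p = 0.00794 in a two-sided exact permutation test, the smallest that 5 against 4 libraries allow, and an adjusted p of 0.0857. Ratios of immunoproteasome to catalytic genes differed by 0.03 (Psmb8 to Psmb5), 0.07 (Psmb9 to Psmb6) and -0.10 (Psmb10 to Psmb7) in CMP, with exact permutation p of 0.508, 0.532 and 0.206. In LSK the corresponding differences were -0.14, 0.10 and -0.15, with -0.09 for Psme2 to Psme3, and none passed after adjustment.

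In LSK no member was called for both Spehd shRNAs together, for sh10, for sh20 or between them, by edgeR, where 0.0% of genes were called in each of these comparisons. DESeq2 called no member either, where it called 0 of 30378 genes for both shRNAs, 3 lower and 0 higher of 30429 for sh10, 148 lower and 47 higher of 16837 for sh20 and 151 lower and 105 higher of 17428 between them. Members with an unadjusted p under 0.05 numbered 1, 0, 2 and 0 in that order, and 3.55%, 3.34%, 8.24% and 9.01% of genes did. The medians were -0.04, -0.06, -0.03 and 0.02, and that for sh20 turned to 0.0166 without LSK Renilla C. With log2 total counts as covariate the medians for both shRNAs, sh10 and sh20 turned to 0.0641, 0.0529 and 0.0603. Psmb8 had the smallest p with both shRNAs, at 203, 196, 256 and 203 CPM in the controls, 174, 196 and 171 CPM with sh10 and 191, 199.8 and 179 CPM with sh20. The groups overlapped (log2 difference -0.22, adjusted p = 0.998, edgeR), and the difference was -0.12 without LSK Renilla C.

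Psmd10 was at 61.5, 62.3, 64.1 and 74.1 CPM in LSK Renilla, 66.3, 75.9 and 62.3 CPM with sh10 and 93.3, 85.4 and 84.5 CPM with sh20, and all 3 sh20 libraries lay above the other LSK libraries without passing (adjusted p = 0.453 against Renilla, edgeR). Lying above all controls with sh20 held for 2 members and for 6.29% of genes tested. Psme4 was at 52.2, 14.7 and 55.3 CPM with sh10 and 28.0, 35.7 and 28.3 CPM with sh20, against 44.2 to 63.0 CPM in the controls. LSK sh10 B held the lowest Psme4 and, at 63.9 CPM, the lowest Psmc6 of the 19 libraries. Psmc1, a base ATPase, had the third smallest p with sh10, at 175, 175, 199 and 181 CPM in the controls and 166, 168 and 156 CPM with sh10, which lay below them (log2 difference -0.15, adjusted p = 0.997, edgeR). Lying below all controls with sh10 held for 1 member and for 3.59% of genes tested. After Psmd10, the smallest p between sh20 and sh10 were those of Psmd12 and Psmd1, a scaffold of the base, with log2 differences of 0.20 and 0.26 (adjusted p = 0.633 and 0.637, edgeR). They were 0.13 for Psmd12 without LSK sh20 A and 0.09 for Psmd1 without LSK sh10 B. Psma7, among the 3 smallest with both shRNAs and with sh10, had log2 differences of -0.19 and -0.20 (adjusted p = 0.998 and 0.997, edgeR), and -0.11 and -0.12 without LSK Renilla C.

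Whether the knockdown differed between the cell types was tested as an interaction. No member passed by edgeR or DESeq2, where 0.0531% of genes were called in either direction by edgeR and 0.567% by DESeq2, and 15 members had an unadjusted p under 0.05 (9.99% of genes). The differences, CMP minus LSK, had a median of -0.20, and 38 of 42 were negative (54.1% of genes). Psmc2 (-0.26), Psmd10 (-0.38) and Psmd7 (-0.23) had the smallest p (adjusted p = 0.405, 0.414 and 0.417, edgeR). The interaction, the knockdown in CMP and the control contrast of CMP with LSK share the control CMP libraries.

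Other genes of the pathway came from a list of 34 counted genes, among them core chaperones, inhibitors, ubiquitin genes and shuttles. It holds no member, since members were chosen by symbol, but it is not limited to genes outside the proteasome itself. In control cells 10 were higher in CMP than in LSK and 1 was lower, where 11.0% and 8.58% of all genes were. Txnl1, a thioredoxin-like protein bound to the proteasome, rose by 0.56 (adjusted p = 8.24e-05, edgeR) and the inhibitor Psmf1 by 0.55 (adjusted p = 0.00153, edgeR). Psmg1, Psmg2 and Psmg3, which assemble the alpha ring, rose by 0.45, 0.62 and 0.72 (adjusted p = 0.00627, 0.00241 and 0.0315, edgeR), and the ubiquilin Ubqln2 fell by 0.77 (adjusted p = 0.0387, edgeR). With sh20 in CMP, Pomp, which matures the core, fell by 0.41 (adjusted p = 0.0305, edgeR), the 1 gene of the 34 called, where 4.06% of all genes were called lower. None of the 34 was called by edgeR for both shRNAs together in CMP or in LSK, with 9 and 1 at an unadjusted p under 0.05 (16.5% and 3.55% of all genes). Between sh20 and sh10 in CMP, 1 of the 34 was called lower and 0 higher, where 5.9% of all genes were called in either direction.

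Interferon genes were read from a list of 25, since interferon induces the immunoproteasome. In control cells 4 were lower in CMP than in LSK, where 8.58% of all genes were, and none was higher: Oasl2 (-1.27), Gbp3 (-1.42), Irf1 (-0.71) and Ifit1 (-1.19; adjusted p = 0.000254, 0.00115, 0.00195 and 0.0384, edgeR). Between sh20 and sh10 in CMP, 3 were higher, where 2.57% of all genes were: Irf7, Oasl2 (log2 fold change 1.44) and Usp18 (1.42; adjusted p in this order = 0.0146, 0.0252 and 0.04, edgeR). Irf7 was at 38.8 ± 8.41 CPM with sh10, 72.1 ± 6.41 CPM in control CMP and 84.0 ± 8.09 CPM with sh20 (SD, n = 3, 4 and 2), Oasl2 at 33.2 ± 5.33, 50.1 ± 11.1 and 89.1 ± 34.8 CPM, and Usp18 at 26.3 ± 6.59, 45.8 ± 14.9 and 69.7 ± 1.42 CPM. Against the controls, 21 of the 23 tested genes of the list were negative with sh10 (51.7% of all genes), with a median of -0.31. With sh10 Irf7 alone passed (log2 fold change -0.90, adjusted p = 0.0347, edgeR), where 0.911% of all genes were called lower. None of the 3 passed with sh20 against the controls (adjusted p = 0.45, 0.091 and 0.252, edgeR). The immunoproteasome genes did not pass between sh20 and sh10, with log2 differences of -0.17 for Psmb8, 0.09 for Psmb9 and 0.12 for Psmb10. B2m, the light chain of MHC class I, fell with sh20 in CMP by 0.46 (adjusted p = 0.0106, edgeR). It was the 1 gene called of the 23 tested, where 4.06% of all genes were called lower.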

How the data were processed

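RNA of sorted LSK and CMP cells was amplified with SMART-Seq v4 and sequenced on an Illumina HiSeq. The deposited values are raw read counts per gene, which the authors made by aligning reads to mm10 with STAR 2.5.2a, removing duplicates with Picard 1.131 and counting with HTSeq 0.7.2 on GENCODE vM11. The authors' table of counts divided by DESeq2 1.16.1 size factors was not used. The methods name no strand setting and state that software defaults applied where nothing else is given. SMART-Seq v4 does not mark strand. Rows that name no gene (unassigned, ambiguous or multiply aligned reads) took 72.0% to 77.7% of each file and were left out.

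Members were chosen by symbol, and members and gene lists were chosen with earlier results of these data known. Counts were scaled by TMM and tested across all genes with edgeR 4.0.16 (quasi-likelihood, robust) in R 4.3.3, after filterByExpr (minimum count 10, total 15), with Benjamini-Hochberg adjustment at 0.05. CPM used TMM over all 19 libraries, and log2 CPM a prior count of 2. Contrasts were each shRNA and both together against Renilla within a cell type, sh20 against sh10, CMP against LSK per shRNA, and the interaction. Ratios were compared by two-sided exact permutation tests (scipy 1.17.1). The scripts were tested on simulated data. Named in each comparison were up to 5 members with the smallest adjusted p past 0.05 or, where none passed, the 3 with the smallest p, beside the catalytic, immunoproteasome and PA28 genes. Psmd5, Psmd10 and Psmd11, Psmc6 with sh20 and the pathway and interferon genes were named after their values were seen. One gene of the pathway list is not reported here. Lengths are from GENCODE vM21 (GRCm38). Alternatives were other normalizations and filters, DESeq2 1.42.0, other designs, total counts as covariate, and each library left out. Depth was 3647318 to 5965155 counts per library.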

Additional observations from a re-analysis of the deposited data

Results flagged for a closer look

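Of 64 group values of 4 to 10 libraries, 4 had a library whose gap to the next was above the 95% critical value of Dixon's test, and chance alone marks about 1 in 20 such groups. The causes were not tested.

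Psmb8 stood apart in LSK Renilla C, with a log2 CPM of 8.005 against 7.618 to 7.666 in the other LSK Renilla libraries, and so did Psmb10 in that library, at 7.415 against 7.100 to 7.146. Both genes encode immunoproteasome subunits. That library also held the highest control LSK values of Psmb6, Psmb7, Psme1, Psme2 and Psme3, but not of Psmb5 or Psme4. It had the fewest counts of the 19 libraries, 3647318. Its member share was 0.669%, against 0.580% to 0.626% in the other LSK Renilla libraries. Psme4 was at 4.710 log2 CPM in CMP Renilla D and at 5.640 to 5.686 in the other CMP Renilla libraries. The mean log2 CPM of the 42 members was 7.189 in CMP Renilla C, below the 7.246 to 7.256 of the other CMP Renilla libraries.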

How the results depend on the processing

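Counts of members called kept within 1.5 times of their value in 204 alternatives and left that range in 44. Part of the 204 are counts of 0 that stayed 0, as in LSK, where edgeR called 0.0% of genes. The count for sh10 in CMP left the range whichever CMP sh10 or CMP Renilla library was left out. Values of named members kept their direction and side of the threshold in 759 of 825, and 1 reversed: Psma7 with sh10 in LSK was 0.00119 with log2 total counts as covariate. The causes of the changes below were not tested. With all 19 libraries in 1 fit, 10 members were called lower in CMP for both shRNAs (2.17% of genes), with separate shRNA groups 14, with upper quartile normalization 14 and with DESeq2 18. Upper quartile normalization called 9 (sh10 in CMP), 22 (sh20 in CMP), 5 (CMP minus LSK, sh10) and 1 (CMP minus LSK, sh20), with medians of -0.27 for both shRNAs, -0.25 for sh10 and -0.32 for sh20 in CMP and 0.053 for CMP minus LSK with sh10. Without a filter the counts were 0 (sh10 in CMP), 5 (sh20 in CMP), 1 (sh20 minus sh10 in CMP), 10 (CMP minus LSK, Renilla), 3 (sh10) and 1 (sh20). At least 10 counts in every library gave 3 calls with sh10 in CMP (1.65% of genes lower) and a median of 0.11 for CMP minus LSK with sh10. DESeq2 called 11 with sh10 and 3 for sh20 minus sh10 in CMP, and its size factors in edgeR 0 with sh10. With log2 total counts as covariate 0 and 0 were called with sh10 and sh20 in CMP, and the medians were -0.0717 (both), -0.0676 (sh10), -0.0818 (sh20) and -0.00962 (sh20 minus sh10) in CMP, 0.0641, 0.0529 and 0.0603 for both, sh10 and sh20 in LSK, 0.12 for CMP minus LSK with sh20 and -0.11 for the interaction. Leaving out LSK Renilla B and D, an alternative chosen after seeing the data, gave 13 calls for CMP minus LSK with Renilla and a median of -0.13 for sh10 in LSK.

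Leaving out 1 library gave 0 to 4 calls for both shRNAs in CMP, 0 to 5 for sh10, 3 to 12 for sh20, 0 to 3 for sh20 minus sh10, and 19 to 31, 5 to 18 and 0 to 5 for CMP minus LSK with Renilla, sh10 and sh20. The medians ran from -0.0809 to -0.00341 for both shRNAs and -0.0639 to 0.0166 for sh20 in LSK, -0.12 to -0.0271 for sh10 in LSK, -0.0303 to 0.0848 for sh20 minus sh10 in LSK and 0.13 to 0.28 for CMP minus LSK with sh10. With the replicate letter as a block, 0 and 0 members were called with sh10 and sh20 in CMP (0.0362% and 0.0% of genes lower). Nothing in the labels says what a letter shares, and not every pair of one letter correlated over 0.1: deviations of same-lettered libraries correlated at -0.08 to 0.04 over 16 pairs within a cell type and at -0.000694 to 0.21 over 9 pairs across cell types (median 0.0522, against -0.0269 over 22 pairs of unlike letters). Depth limits Psma8 (24 to 175 counts per library) most among tested members.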
